A study of Schizosaccharomyces pombe with 6 samples.

Results

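The genes described here lie at the 2 ends of fission yeast chromosome II and were chosen by their systematic IDs, which begin with the name of the sequenced clone that carries the gene. Count table entries of the clones SPBC1348, SPBPB8B6, SPBPB21E7, SPBPB10D8, and SPBC1683, at the left end, and of SPBPB2B2 and SPBCPT2R1, at the right end, were taken. Of 75 entries on these 7 clones, 11 were left out by ID and 64 were kept, out of 6988 features in the whole table. Among those left out are genes that the study lists as lower in the mutant, so counts by clone cover only the genes kept. The 64 genes are 39 at the left end and 25 at the right end, and 8 of them are annotated as pseudogenes. The rule uses IDs alone and no measured value, though it was set with earlier results of these data known.

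Poly(A)+ RNA was sequenced from wild-type *Schizosaccharomyces pombe* and from an *asp1-H397A aps1*∆ *siw14*∆ *spx1*∆ mutant, with 3 biological replicate cultures of each strain. The labels describe both strains as haploid, *h-*, and in vegetative growth, and the cultures were taken in logarithmic phase in ePMGT, a phosphate-replete medium. The study's own strain list gives this mutant genotype as *h+* under another strain number, so the mating type of the mutant is in doubt. The mutant carries a pyrophosphatase-dead *asp1-H397A* allele linked to *natMX*, *aps1*∆ marked with *kanMX*, *siw14*∆ marked with *hygMX*, and *spx1*∆ marked with *ura4MX*, so it lacks the 3 inositol pyrophosphatase activities and the SPX domain protein Spx1. Counts summed to 16593476 to 21436751 per wild-type library and 20305111 to 22690741 per mutant library. The genotype differs at 4 loci and in 4 drug or nutrient markers at once, so their effects on the end genes cannot be told apart.

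In fission yeast the regions beside the telomeres are packaged in heterochromatin, in which methylated histone H3 is bound by Swi6, and in a neighbouring zone of compact chromatin that silences many of the genes within it. The sequences closest to the ends are shared between chromosomes, so that helicase genes, membrane protein families, and transporters recur there as near-identical copies. Farther in lie single-copy genes of nutrient uptake and metabolism, among them the galactose pathway genes *gal1*, *gal7*, and *gal10* at the right end.

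Most of the end genes had few or no counts, and most of those that could be tested were lower in the mutant (the plot of every gene in every library). No count was found in any of the 6 libraries for 13 of the 64 genes, 21 had counts too low for the test, and 30 were tested. Of the 30, 6 were called lower: *cmt2*, *aes1*, SPBPB21E7.08, SPBC1683.12, *say1*, and SPBPB2B2.05. The 1 called higher was *tlh2*, at the right end. All of these genes are also in the study's own lists from these libraries, with the same directions. A gene was called where edgeR's quasi-likelihood test gave an adjusted p no higher than 0.05, the strains differed 2-fold or more, and the higher strain had a mean of 100 or more normalized counts. By the same rule, 1.72% of the 5947 genes tested in the whole table were called lower and 0.37% were called higher.

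**Figure D1:**
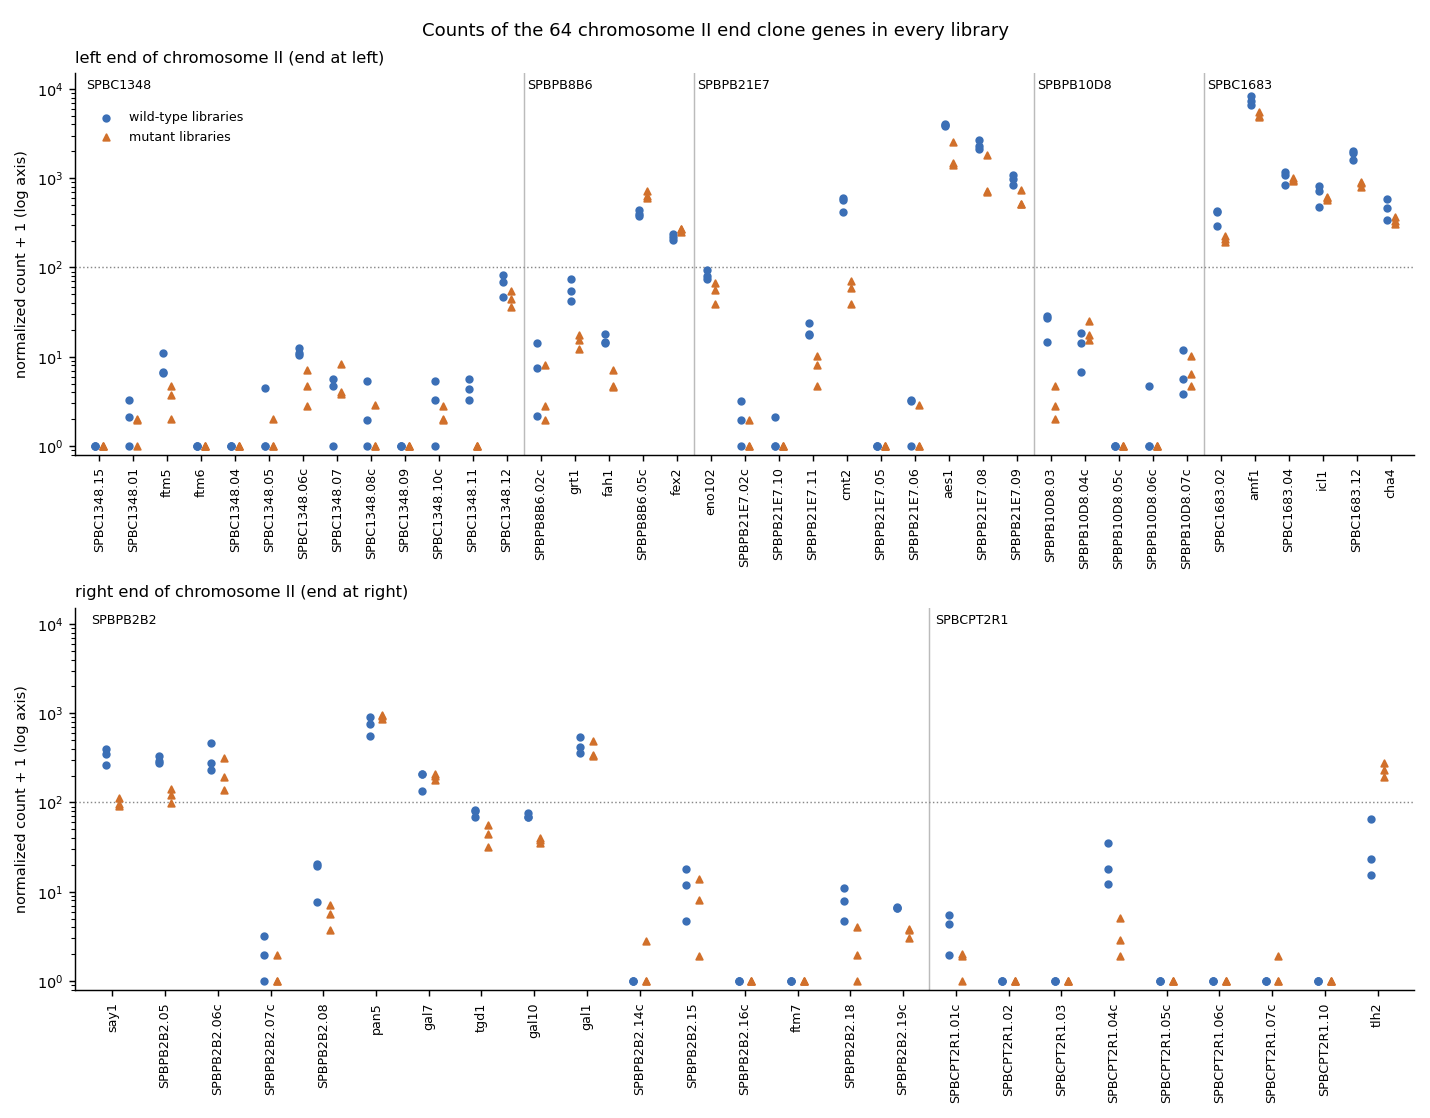
Normalized count plus 1 (log axis) of each of the 64 genes in the 3 wild-type libraries (circles) and the 3 mutant libraries (triangles), in chromosome order, with the left end above and the right end below. The dotted line marks a normalized count of 100, which 19 genes reached as a mean in at least 1 strain; points on the floor of the plot are counts of 0, and 13 genes have all 6 points there.

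With the adjusted p as the sole criterion, 16 of the 30 were lower and 2 were higher, against 7.03% and 5.33% of all genes tested. Every mutant library was below every wild-type library for 17 of the 30 and above for 3, against 17.3% and 16.4% of all genes tested. The log2 ratio is the log2 fold change of the mutant over the wild-type as edgeR estimates it, with its standard error (SE), and its median was −0.67 over the 30 and 0.0018 over all 5947. These counts describe the genes that passed a filter on low counts, and 4 of them (*fah1*, SPBPB21E7.11, SPBPB10D8.03, and SPBCPT2R1.04c) passed through their wild-type libraries alone, which favours a lower value in the mutant. No gene passed through its mutant libraries alone. Among the 24 that passed in all 6 libraries, 12 were lower and 2 higher at the adjusted p, with a median of −0.62.

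M cell markers, by unequal amounts, and 1 P cell marker were also lower in the mutant. All 5 M cell markers were lower in the mutant at the adjusted p, with a median log2 ratio of −2.01, and their summed level was 4905 to 7100 normalized counts in wild-type libraries and 2097 to 2414 in mutant libraries. The M-factor gene *mfm1* had 95 to 142 counts against 9 to 10, and *mfm2* had 2515 to 3917 against 692 to 986. The others were *mfm3*, *mam1*, and *mam2*, and the log2 ratios ranged from −3.75 for *mfm1* to −0.54 for *mam1*. Of the 3 P cell markers, *map2* was lower (−0.76) and *map3* and *map4* did not pass the test, with a median of −0.034 and a summed level of 1124 to 1334 against 1114 to 1197. Markers of both types had counts in every library, so they do not settle the mating type, and the part of this change in the results on the end genes was not tested.

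**Figure D2:**
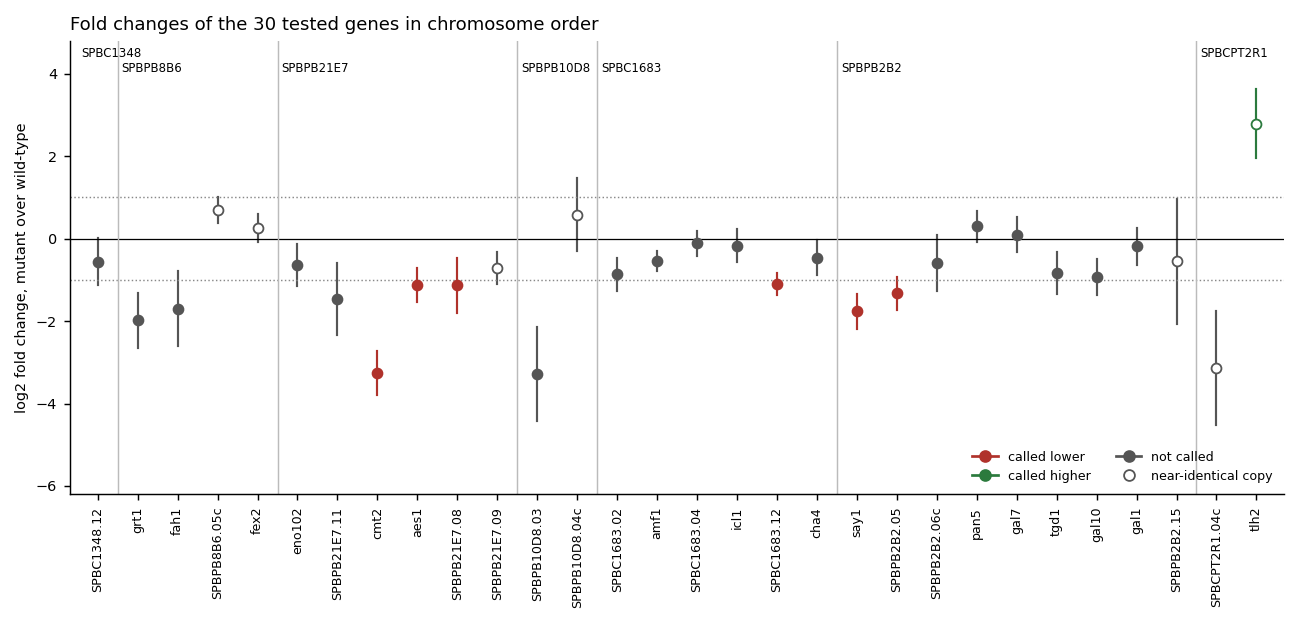
Log2 fold change (mutant over wild-type) of the 30 tested genes in chromosome order from the left end to the right end, with 95% intervals as vertical lines; n = 3 libraries per strain. Open symbols are genes with a near-identical copy elsewhere in the genome, dotted lines mark a 2-fold change, and *cmt2*, at −3.26, and *tlh2*, at 2.79, are the called genes farthest from 0.

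SPBC1348 is the clone nearest the left end, and its 13 genes had few counts. Near-identical copies exist for 11 of them. No count was found for 4: SPBC1348.15, the transmembrane protein gene *ftm6*, the methyltransferase gene SPBC1348.04, and the dehydrogenase gene SPBC1348.09. A further 8 had at most 10 counts in any library and were not tested. One of these, SPBC1348.11, a transporter pseudogene without a copy, had 2, 5, and 3 counts in wild-type replicates 1, 2, and 3 and 0 in each mutant library, where a count of 0 allows up to 3 counts. The Vel1p domain gene SPBC1348.06c had 10, 10, and 9 counts against 2, 6, and 4, and it has no sequence that would set its reads apart from those of its copies.

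SPBC1348.12, the innermost of the 13, encodes a DNA-binding transcription factor and was the only one tested. It had 80.9, 68.5, and 45.2 normalized counts in wild-type replicates 1, 2, and 3 and 35.5, 43.0, and 53.1 in the mutant ones. The strains overlapped, with wild-type replicate 3 below mutant replicate 3. The log2 ratio of −0.57 (SE 0.26, adjusted p = 0.185) did not pass the test, but without wild-type replicate 3 it was −0.77 with an adjusted p of 0.014.

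On the neighbouring clone SPBPB8B6, with 5 genes, the transcription factor gene *grt1* and the acetamidase gene *fah1* were lower in the mutant at the adjusted p and the L-asparaginase gene SPBPB8B6.05c was higher. SPBPB8B6.05c, for an enzyme that splits asparagine into aspartate and ammonia, had 434, 393, and 377 normalized counts in the wild-type and 592, 634, and 727 in the mutant. The strains did not overlap. Its log2 ratio of 0.70 (SE 0.15, adjusted p = 0.00967) passed the test but not the 2-fold threshold, and the adjusted p rose above 0.05 in 3 of the 6 fits that left out 1 library. Only 26.8% of its 51-base windows, the length of a read, are found once in the genome, because SPAC977.12 at an end of chromosome I is a near-identical copy. SPAC977.12 had a log2 ratio of 0.29 (adjusted p = 0.168), and the counts of both genes together were 1192, 1277, and 1075 against 1666, 1693, and 1938.

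*fex2*, which encodes a plasma membrane fluoride export channel, had 220, 236, and 199.7 normalized counts in the wild-type and 270.1, 249, and 268 in the mutant. Each mutant library was above each wild-type library, yet the log2 ratio of 0.26 (SE 0.15, adjusted p = 0.297) did not pass the test, with a 95% interval of −0.070 to 0.60. Its copy *fex1*, on chromosome I, had a log2 ratio of 0.37 (adjusted p = 0.149).

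*grt1* and *fah1* lie on opposite strands of the same stretch, with *fah1* wholly inside *grt1*. *grt1* had 72.9, 53.5, and 40.8 normalized counts in the wild-type and 14.6, 16.4, and 11.2 in the mutant. All 3 mutant libraries were far below the lowest wild-type library. It fell by 1.98 on the log2 scale (SE 0.30, adjusted p = 0.00149) and was not called because its mean stayed under 100. *fah1* had 13.7, 16.9, and 13.2 against 3.64, 6.14, and 3.73, a log2 ratio of −1.70 (SE 0.41, adjusted p = 0.0206) that no longer passed with DESeq2 (adjusted p = 0.0965) or in 3 of the 6 fits without 1 library. *fah1* passed the count filter through its wild-type libraries alone, which favours a lower value in the mutant. The urea transporter gene SPBPB8B6.02c had 1 to 12 counts and was not tested.

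Of the 39 left end genes described here, tested or not, 4 were called lower, and 3 of these were among the 10 on SPBPB21E7. Together the 10 genes had 7911 ± 318 normalized counts in the wild-type and 3583 ± 1410 in the mutant (SD, n = 3 each), or 45.3% of the wild-type mean. All 6 tested genes had a negative log2 ratio, and 5 of them passed the test. Over the whole table, 1.72% of the genes tested were called lower and 7.03% were lower at the adjusted p.

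*cmt2* encodes a catechol O-methyltransferase, which transfers a methyl group to catechols. Its normalized counts were 602, 569.9, and 416 in the wild-type and 38.2, 57.3, and 69.9 in the mutant. The lowest wild-type library was well above the highest mutant library. The mutant mean was 10.4% of the wild-type mean, and the log2 ratio was −3.26 (SE 0.24, adjusted p = 6.43e-06). It ranged from −3.47 to −3.05 when 1 library was left out. In RPKM, counts scaled to exon length and library size, the level went from 24.2 to 2.52. A noncoding RNA gene that overlaps part of it on the other strand, SPNCRNA.1304, had 4 to 8 counts per library.

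The genes *aes1*, SPBPB21E7.08, and SPBPB21E7.09 lie side by side on 1 strand, and mutant replicate 1 was the highest mutant library for each of them. *aes1*, listed as a phenazine biosynthesis family protein, had 4011, 3859, and 3925 normalized counts in the wild-type and 2521, 1464, and 1393 in the mutant. The wild-type libraries lay close together, and mutant replicate 1 stood well above the other 2 but below all wild-type libraries. The log2 ratio was −1.13 (SE 0.19, adjusted p = 0.00257). It was −1.46 without mutant replicate 1 and −0.98 without mutant replicate 3, where *aes1* lost its call by falling short of 2-fold.

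SPBPB21E7.08, a pseudogene that was nevertheless the third most abundant of the end genes per kilobase, had 2709.96, 2322, and 2109.6 normalized counts in the wild-type and 1833, 698, and 725 in the mutant. Mutant replicate 1 again came nearest to the wild-type. The log2 ratio of −1.13 (SE 0.30, adjusted p = 0.0307) was called, but the call depended on the libraries and the tool. The adjusted p was 0.054 without wild-type replicate 2, 0.079 without mutant replicate 2, and 0.118 without mutant replicate 3, while without mutant replicate 1 the change was −1.74. With DESeq2 as run here the adjusted p was 0.0897, and with library totals in place of TMM it was 0.0806. The study's own DESeq2 analysis of these libraries does list SPBPB21E7.08 as lower in the mutant. The noncoding RNA gene SPNCRNA.1305 covers 94.0% of this pseudogene on the other strand and had a log2 ratio of −1.19 (adjusted p = 0.0123), and the part of its reads in the count of SPBPB21E7.08 was not tested.

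SPBPB21E7.09, the other L-asparaginase gene of the left end, had 836, 977, and 1083 normalized counts in the wild-type and 744, 512, and 513 in the mutant. The strains did not overlap, though mutant replicate 1 came close to wild-type replicate 1. Its log2 ratio of −0.71 (SE 0.17, adjusted p = 0.0205) was opposite in sign to that of SPBPB8B6.05c (0.70). It no longer passed without wild-type replicate 2 (adjusted p = 0.075), mutant replicate 2 (0.105), or mutant replicate 3 (0.118). The near-identical copy SPAC186.03 had only 1 to 8 counts per library, against 501 to 1041 for SPBPB21E7.09.

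The remaining genes of SPBPB21E7 were of low abundance. The enolase gene *eno102*, for a step of glycolysis, had 79.8, 74.2, and 92.7 normalized counts against 65.5, 54.2, and 38.2. The strains did not overlap, but the log2 ratio of −0.64 (SE 0.23, adjusted p = 0.0956) did not pass the test; SPNCRNA.1302 on the other strand had −0.54 (adjusted p = 0.0475). SPBPB21E7.11, an uncharacterized gene, had 22.8, 16.9, and 16.5 against 9.09, 7.16, and 3.73, and its log2 ratio of −1.47 (SE 0.39, adjusted p = 0.032) failed with DESeq2 (adjusted p = 0.0993) and in 5 of the 6 fits without 1 library. SPBPB21E7.11 passed the count filter through its wild-type libraries alone, which favours a lower value in the mutant. SPBPB21E7.02c, SPBPB21E7.06, and SPBPB21E7.10 had at most 2 counts in a library, and SPBPB21E7.05, whose sequence is unique, had none.

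**Figure D3:**
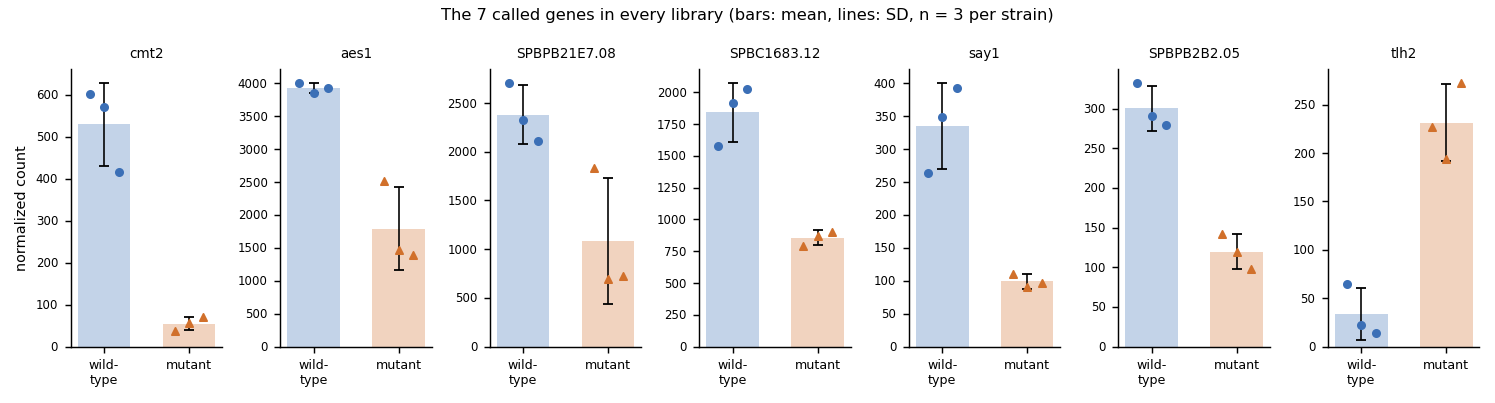
Normalized counts of the 7 called genes in each library, on a linear axis from 0 for each gene. Bars are strain means, black lines are SDs over n = 3 libraries, and points are libraries in replicate order; in *aes1* and SPBPB21E7.08 mutant replicate 1 is the high point, and in *tlh2* wild-type replicate 1 is.

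The 5 genes kept from SPBPB10D8 had low counts. The transporter pseudogene SPBPB10D8.03, which has no copy, had 13.7, 27.2, and 26.5 normalized counts in the wild-type and 1.82, 1.02, and 3.73 in the mutant. Its counts were 1 to 4 in each mutant library, so the log2 ratio of −3.28 (SE 0.52, adjusted p = 0.00188) is imprecise, with a 95% interval of −4.42 to −2.15. SPBPB10D8.03 passed the count filter through its wild-type libraries alone, which favours a lower value in the mutant. The other 4, SPBPB10D8.04c to SPBPB10D8.07c, are a run of transporter genes that are near-identical copies of each other. SPBPB10D8.04c had 5.7, 13.1, and 17.7 against 16.4, 14.3, and 24.2, with overlapping strains and a log2 ratio of 0.58 (SE 0.40, adjusted p = 0.403). The other 3 were not tested, and the sum of the 4 genes was 9, 21, and 26 counts in the wild-type and 24, 23, and 30 in the mutant.

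SPBC1683, the innermost of the left end clones, had no near-identical copies among the 6 genes kept from it, and all 6 were tested. Together they had 11801 ± 578 normalized counts in the wild-type and 8057 ± 344 in the mutant (SD, n = 3 each). SPBC1683.12, a nicotinic acid transporter gene for uptake of an NAD precursor, had 1579, 1919, and 2029 in the wild-type and 791, 874, and 904 in the mutant. No library came near the other strain. The log2 ratio of −1.11 (SE 0.12, adjusted p = 0.000166) was called.

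The transporter gene *amf1* was the most abundant of the end genes, at an RPKM of 184 in the wild-type and 127 in the mutant. It had 6571, 7406, and 8241 normalized counts in the wild-type and 4808, 4986, and 5499.99 in the mutant. The strains were apart, and the log2 ratio of −0.54 (SE 0.11, adjusted p = 0.00761) was under 2-fold. Without mutant replicate 2 the adjusted p was 0.0512. SPBC1683.02, of the adenine and adenosine deaminase family, had 418, 424, and 293 against 224, 193, and 206, a log2 ratio of −0.87 (SE 0.18, adjusted p = 0.00927). It was called lower when wild-type replicate 3 was left out, and it did not pass the test without wild-type replicate 2, mutant replicate 2, or mutant replicate 3 (adjusted p of 0.0555 to 0.0576).

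The other 3 genes of SPBC1683 did not pass the test. The glycosyl hydrolase gene SPBC1683.04 had a log2 ratio of −0.11 (95% interval −0.42 to 0.19, adjusted p = 0.66). The isocitrate lyase gene *icl1* had −0.17 (−0.57 to 0.24, adjusted p = 0.618). *cha4*, whose *Saccharomyces cerevisiae* namesake activates serine and threonine breakdown, had −0.46 (−0.89 to −0.029, adjusted p = 0.156). For each of them the wild-type libraries spanned a wider range than the mutant libraries, and wild-type replicate 3 was the lowest wild-type library. For SPBC1683.04 and *icl1* it lay below every mutant library.

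At the right end, the 16 genes of SPBPB2B2 included well-counted genes on the inner side and copied genes with few counts on the outer side. Of its 9 tested genes, 2 were called lower, against 1.72% of all genes tested. *say1*, a sterol deacetylase gene, had 263, 349, and 393 normalized counts in the wild-type and 111, 90.01, and 95.9 in the mutant. The highest mutant library was far below the lowest wild-type library. The mutant mean was 29.5% of the wild-type mean, with a log2 ratio of −1.76 (SE 0.19, adjusted p = 0.000159).

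Beside *say1* lies SPBPB2B2.05, of the class I glutamine amidotransferase family. It had 333, 290.1, and 279 normalized counts in the wild-type and 142, 119.7, and 97.8 in the mutant. The strains were far apart, and the log2 ratio was −1.33 (SE 0.18, adjusted p = 0.000727). The calls of *say1* and SPBPB2B2.05 held in every alternative fit, as did those of *cmt2*, SPBC1683.12, and *tlh2*.

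SPBPB2B2.06c, annotated as a 5′-nucleotidase of the NT5E family that acts outside the cell, varied widely among the cultures of each strain. It had 232, 278, and 469 normalized counts in the wild-type and 313, 193, and 138 in the mutant. The strains overlapped, and the log2 ratio of −0.60 (SE 0.31, adjusted p = 0.24) did not pass the test. *pan5*, for 2-dehydropantoate 2-reductase of pantothenate synthesis, had 917, 759, and 551 against 923, 849.98, and 957. Its log2 fold change was 0.29 (SE 0.17, adjusted p = 0.306), and it passed only without wild-type replicate 1 (0.47, adjusted p = 0.0378).

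The galactose genes, whose enzymes convert galactose to glucose 1-phosphate, were tested one by one, and only *gal10* passed. *gal10*, the epimerase gene, had 67.2, 76.04, and 67.3 normalized counts in the wild-type and 39.1, 36.8, and 34.5 in the mutant. The strains did not overlap, and it fell by 0.93 on the log2 scale (SE 0.20, adjusted p = 0.0111). *gal7*, the uridylyltransferase gene, had 206, 208, and 134 against 207, 179, and 199, a log2 ratio of 0.094 (95% interval −0.33 to 0.52, adjusted p = 0.805) that turned to −0.090 without wild-type replicate 3. *gal1*, the galactokinase gene, had 537, 419, and 354 against 482, 329, and 337, a log2 ratio of −0.19 (−0.63 to 0.26, adjusted p = 0.611). In wild-type RPKM, *gal1* was at 10.8, *gal7* at 6.1, and *gal10* at 0.974. The differences between their fold changes were not tested.

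*tgd1*, a nucleotide-sugar dehydratase gene, is covered to 98.8% by *gal10* on the other strand. It had 82.1, 68.5, and 79.4 normalized counts against 54.6, 30.7, and 42.8, and its log2 ratio of −0.83 (SE 0.23, adjusted p = 0.0395) was near that of *gal10*. The strains did not overlap. The libraries were made with a directional kit, which keeps the strand of the RNA. Whether strand was used in counting is not stated in the methods or labels, so reads of these 2 genes may not be fully apart. In the whole table, 246 of the 315 coding genes that are wholly covered by exons of the other strand had a mean count of at least 100, while all 3 that are wholly covered on the same strand were below it. The calls of *tgd1* and *gal10* at the adjusted p were both lost without wild-type replicate 2, mutant replicate 2, or mutant replicate 3, and *tgd1* also failed with DESeq2 (adjusted p = 0.0516) and with library totals (0.0531).

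Beyond *gal1* toward the end, only SPBPB2B2.15, a Vel1p domain gene, was tested. It had 17.1, 3.76, and 11.03 normalized counts against 0.909, 7.16, and 13.04, with overlapping strains and a log2 ratio of −0.55 (SE 0.69, adjusted p = 0.668). None of its windows is unique. Its copy SPAC977.05c had a log2 ratio of −1.12 (adjusted p = 0.032), and SPBPB2B2.15, SPAC977.05c, and SPBC1348.06c together had 92, 77, and 65 counts in the wild-type and 22, 53, and 48 in the mutant. SPBPB2B2.18, a conserved fungal gene with no unique window, had 6, 4, and 9 counts against 0, 3, and 1. With its copy SPAC977.18 the sum was 35, 54, and 38 against 9, 5, and 3. The transporter gene SPBPB2B2.16c and the transmembrane protein gene *ftm7* had no count. The highest count of an untested gene among the 64 was 21, in the conserved fungal gene SPBPB2B2.08, which is single-copy and had 16, 21, and 6 counts against 3, 6, and 5.

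The outermost right end clone, SPBCPT2R1, held the only one of the 64 genes that was called higher. All of its 9 genes have near-identical copies, 4 are pseudogenes, and 5 had no count in any library: SPBCPT2R1.02, SPBCPT2R1.03, and the pseudogenes SPBCPT2R1.05c, SPBCPT2R1.06c, and SPBCPT2R1.10. *tlh2*, a RecQ type DNA helicase gene and the last gene before the right end, had 64.96, 22.5, and 14.3 normalized counts in the wild-type and 227, 194, and 273 in the mutant. The lowest mutant library was well above the highest wild-type library, wild-type replicate 1. The log2 ratio was 2.79 (SE 0.38, adjusted p = 0.000755), with a 95% interval of 1.95 to 3.63, and it was 3.62 without wild-type replicate 1. In the mutant its counts gave an RPKM of 1.88, against 127 for *amf1*. RPKM is scaled to the whole exon length, while most windows of *tlh2* are not unique. These values therefore do not compare the RNA levels of *tlh2* and *amf1*.

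Only 6.77% of the windows of *tlh2* are unique, since *tlh1* and SPAC212.06c at an end of chromosome I are near-identical to it. *tlh1* had 7, 1, and 0 counts in the wild-type and 31, 24, and 26 in the mutant, with a log2 ratio of 3.13 (adjusted p = 0.0064). SPAC212.06c had 3, 13, and 5 against 16, 14, and 28 (1.31, adjusted p = 0.0946). The sum of the 3 genes was 67, 38, and 18 counts in the wild-type and 297, 228, and 347 in the mutant. A read from one of these genes may have been counted for another, so the split of these counts among the 3 is uncertain.

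SPBCPT2R1.04c, of the DUF999 family found in *S. pombe*, went the other way on the same clone. It had 17.1, 11.3, and 34.2 normalized counts in the wild-type and 0.909, 4.09, and 1.86 in the mutant. The strains did not overlap, and the log2 ratio was −3.14 (SE 0.63, adjusted p = 0.00768), with only 1 to 4 counts per mutant library. SPBCPT2R1.04c passed the count filter through its wild-type libraries alone, which favours a lower value in the mutant. With its 4 copies, among them SPBC1348.01 and SPBCPT2R1.01c, the sum was 22, 15, and 35 counts against 5, 12, and 6.

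Sequence copies and low counts went together over the 64 genes. A near-identical copy, matching 95% or more of the bases over 50% or more of the gene, was found for 34 of the 64, and 27 of these were among the 34 not tested. Of the 13 genes without a count, 12 have a copy. The 18 genes with no unique 51-base window had a mean count of at most 8.5, and in the whole table the 43 coding genes of that kind had a median of 0.167 and a highest mean of 23.7, against a median of 1307 for the 5029 with mostly unique sequence. Whether reads that fit several places were left out of the counts was not tested for these genes, so a count near 0 does not show a low level of RNA where no window is unique. Of the 30 genes without a copy, 23 were tested, and all 6 calls of lower genes were among them. At the adjusted p of edgeR's test, 14 of the 23 were lower and 9 did not pass it. Of the 14, *fah1*, SPBPB21E7.11, and SPBPB10D8.03 passed the count filter through wild-type libraries alone, which favours a lower value in the mutant. Of all genes tested, 7.03% were lower at the adjusted p and 1.72% were called lower.

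**Figure D4:**
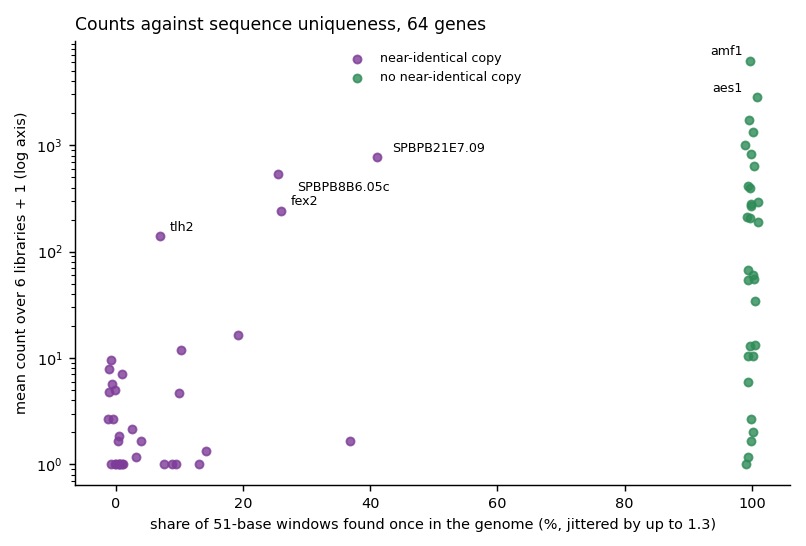
Mean count over the 6 libraries plus 1 (log axis) of each of the 64 genes against the percentage of its 51-base windows that occur once in the genome (ASM294v3), with points shifted sideways at random so that they can be told apart. The 18 genes at 0% all have a mean count of at most 8.5, while the genes at 100% range from 0 to 6199.

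Among the 19 genes with a mean of at least 100 in a strain, the libraries of 1 strain did not scatter evenly. Wild-type replicate 3 was the lowest wild-type library in 13 of them and wild-type replicate 1 the highest in 11. In the mutant, replicate 1 was the highest in 13 and replicate 2 the lowest in 10. The part of these library differences in the fold changes was not tested beyond leaving out each library.

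The 3 deleted genes had fewer counts in the mutant, but not all were near 0. *aps1* had 3083 to 3657 counts in wild-type libraries and 307 to 330 in mutant libraries, *siw14* had 1925 to 2666 against 70 to 107, *spx1* (listed as *pqr1*) had 4524 to 6452 against 1915 to 2369, and *ura4* had 0 against 8309 to 9631. The *spx1* counts of the mutant were 33.1% of the wild-type mean, *aps1* was at 8.68%, and *siw14* at 3.61%. Which part of each gene was deleted was not analysed here, so the counts of *spx1* do not by themselves show the deletion. *asp1*, which is mutated and not deleted, had 1199 to 1417 against 927 to 1034. Of 26 genes for telomere and heterochromatin proteins, 24 did not pass edgeR's test at the adjusted p. The other 2 were higher, against 5.33% of all genes tested. The 2 were higher by small amounts, *rif1* by 0.33 and *set2* by 0.43 on the log2 scale, with a median of 0.14 over the 26. On the end clones of chromosome I, 34 of 66 features were tested, of which 7 were called lower and 1, SPAC186.05c, was called higher. At the adjusted p of edgeR's test, 18 of the 34 were lower and 5 higher, with a median log2 ratio of −0.91. Of all genes tested, 1.72% were called lower and 0.37% higher. At the adjusted p alone, 7.03% were lower and 5.33% higher. The ends of the 2 chromosomes were not compared by a test.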

How the data were processed

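RNA was measured in 3 wild-type and 3 mutant libraries, with strain and replicate taken from the labels. The values deposited by the authors are raw counts, whole numbers for each gene, made from paired 51-base reads with HISAT2 version 2.1.0 (mapping to ASM294v2), SAMtools, and HTSeq version 0.10.0 (exon counts). The libraries were made with a directional kit, but the sources used here do not give the strand setting of the counting. Their deposited DESeq2 table holds fold changes, p-values, and averages and was not used.

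In R version 4.3.3, edgeR version 4.0.16 was run on genes past filterByExpr (a count minimum of about 10) with TMM scaling and its quasi-likelihood functions glmQLFit and glmQLFTest. Benjamini-Hochberg adjustment was made over all 5947 such genes. Normalized counts are counts scaled to the mean effective library size. The test was also run on counts simulated from the fitted means and dispersions, with changes set only in well-counted genes. That run does not cover genes with few counts. Called genes had an adjusted p no higher than 0.05, a log2 change of 1 or more in size, and a mean of 100 or more normalized counts in the higher strain.

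Names, gene order, exon lengths, and overlaps came from the RefSeq annotation of ASM294v3, with which 6836 of 6988 features were paired by systematic ID; no coordinates are given because the builds differ. Near-identical copies were found with blastn version 2.17.0. Windows had the 51-base length of a single read, and the placing of read pairs was not examined.

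Named were the called genes, those past the adjusted p threshold, the 2 most abundant per kilobase in each clone, the galactose genes, and *tlh2*; the other genes are named with their counts or to complete a clone, chosen with their values in view. The genes and lists were chosen with earlier results of these data known. TMM was replaced by RLE size factors or by library totals, and the filter by none or by a minimum of 10 counts in each library. Other alternatives were DESeq2 version 1.42.0, limma-voom (limma version 3.58.1), the replicate number as a block, no minimum mean count, the adjusted p alone, genes without near-identical copies, and leaving out each library.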

Additional observations from a re-analysis of the deposited data

How the results depend on the processing

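The 6 calls of lower genes and the 1 call of a higher gene held with RLE size factors, no low-count filter, at least 10 counts in every library, and limma-voom. With library totals or with DESeq2 as run here, 5 genes were called lower, SPBPB21E7.08 being lost. The study's own DESeq2 analysis does list that gene as lower. Leaving out 1 library gave 4 to 7 genes called lower and 1 called higher each time; SPBPB21E7.08 was lost without wild-type replicate 2, mutant replicate 2, or mutant replicate 3, *aes1* was lost without mutant replicate 3, and SPBC1683.02 was gained without wild-type replicate 3. Over all genes the same fits gave 100 to 115 called lower and 18 to 27 called higher. Without a minimum mean count, 11 of the end genes were called lower (179 of all genes lower and 35 higher), and by the adjusted p alone 16 were lower and 2 higher (418 and 317 of all genes). Without genes that have a near-identical copy 6 were called lower and 0 higher, because *tlh2* was then left out. With the replicate number as a block the counts stayed at 6 and 1. The numbers do not pair the samples, since the correlation of same-numbered deviations from the strain means was −0.034, −0.029, and −0.057.

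Of 307 log2 fold changes of 24 named genes under these alternatives, 271 kept their direction and their side of the threshold, 33 from 9 genes no longer passed it, 2 newly passed it (SPBC1348.12 and *pan5*), and 1 changed sign (*gal7*, −0.090 without wild-type replicate 3, within a range of −0.090 to 0.20 over the libraries left out). The 34 untested genes had too few counts for the test, and 27 of them have a near-identical copy. The parts of depth and of shared sequence in this were not tested.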
